A study of Homo sapiens with 12 samples.

Results

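This section describes 9 genes of pericellular matrix proteolysis: the metalloproteinases MMP1, MMP2, MMP9 and MMP14, their tissue inhibitors TIMP1, TIMP2 and TIMP3, and urokinase with its receptor, PLAU and PLAUR. They were chosen by name, and all 9 were found among the 26357 gene names common to the 4 deposited tables. The study sequenced RNA of HMLE cells, a line of human breast epithelium that has been immortalised, with biological triplicates in each of 4 groups and thus 12 libraries. Cells of the HMLE-Twist line, labelled as having undergone an epithelial-mesenchymal transition (EMT), received 0.2 µM salinomycin for 24 h in the first group and mock treatment with the solvent DMSO in the second. HMLE-pBp cells, labelled nonEMT, received the same salinomycin treatment in the third group and the same mock treatment in the fourth. Salinomycin is a polyether ionophore that carries monovalent cations across membranes. The labels do not say how the lines were made or whether either is 1 clone.

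Metalloproteinases are zinc-dependent enzymes that cut extracellular matrix and cell surface proteins. MMP14 is anchored in the plasma membrane and, together with TIMP2, activates the secreted proenzyme of MMP2 at the cell surface. Urokinase, bound to its receptor, turns plasminogen into plasmin, which cuts fibrin and matrix proteins and can activate several pro-metalloproteinases, while the TIMPs bind the active sites of metalloproteinases and block them. These systems are known for their part in invasion by carcinoma cells and in EMT. The libraries measured RNA only, so neither enzyme activity nor activation was recorded. In bulk RNA, fewer cells that express a gene and less of its RNA per cell cannot be told apart.

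Reads recovered from the deposited values, as described below, and summed over genes came to 17.98 to 26.85 megareads per library. TWIST1 averaged 926 ± 249 FPKM (fragments scaled for gene length and sequencing depth) in salinomycin-treated and 725 ± 343 FPKM in mock-treated HMLE-Twist cells, against 2.16 ± 0.276 FPKM in salinomycin-treated and 2.54 ± 0.0360 FPKM in mock-treated HMLE-pBp cells (SD, n = 3). The 8 epithelial markers examined, among them CDH1, EPCAM and KRT5, summed to 2.72 to 3.91 FPKM in salinomycin-treated and 4.18 to 8.33 FPKM in mock-treated HMLE-Twist cells, and to 2346 to 2538 FPKM in salinomycin-treated and 2705 to 3069 FPKM in mock-treated HMLE-pBp cells. The 8 mesenchymal markers, among them TWIST1 itself, VIM, ZEB1 and FN1, summed to 4234 to 5036 FPKM in salinomycin-treated and 3188 to 4093 FPKM in mock-treated HMLE-Twist cells, and to 272 to 317 FPKM in salinomycin-treated and 274 to 309.9 FPKM in mock-treated HMLE-pBp cells. The 8 leukocyte markers summed to 37.7 to 42.2 FPKM in salinomycin-treated and 23.1 to 27.2 FPKM in mock-treated HMLE-Twist cells, and to 21.5 to 31.2 FPKM in salinomycin-treated and 31.9 to 44.0 FPKM in mock-treated HMLE-pBp cells. The treatments did not overlap in either line. Among these markers, CD68 was higher in treated HMLE-Twist cells (log2 fold change 0.67, adjusted p = 1.40e-04, limma). CD14 was lower in treated HMLE-pBp cells at 11.6 ± 4.70 FPKM, against 23.2 ± 5.51 FPKM with mock treatment (adjusted p = 0.0254, limma). The CD14 call was lost without replicate 1 of the salinomycin-treated HMLE-pBp cells. The pan-leukocyte marker PTPRC was at 0 in every HMLE-pBp library. Endothelial markers summed to at most 1.80 FPKM, with EMCN at 0. The 6 measured markers of smooth muscle and pericytes, led by PDGFRB and CSPG4, summed to 26.9 to 36.4 FPKM in salinomycin-treated and 46.3 to 61.2 FPKM in mock-treated HMLE-Twist cells, and to at most 1.52 FPKM in HMLE-pBp cells. The part of these markers in the results below was not tested. Replicate 1 of the salinomycin-treated HMLE-pBp cells lay apart from the other libraries of its group on the first principal component, at 54.3 against 61.6 and 63.9. Values without it are given below for the HMLE-pBp responses of the 9 genes, where tested, and for part of the other results.

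**Figure D1:**
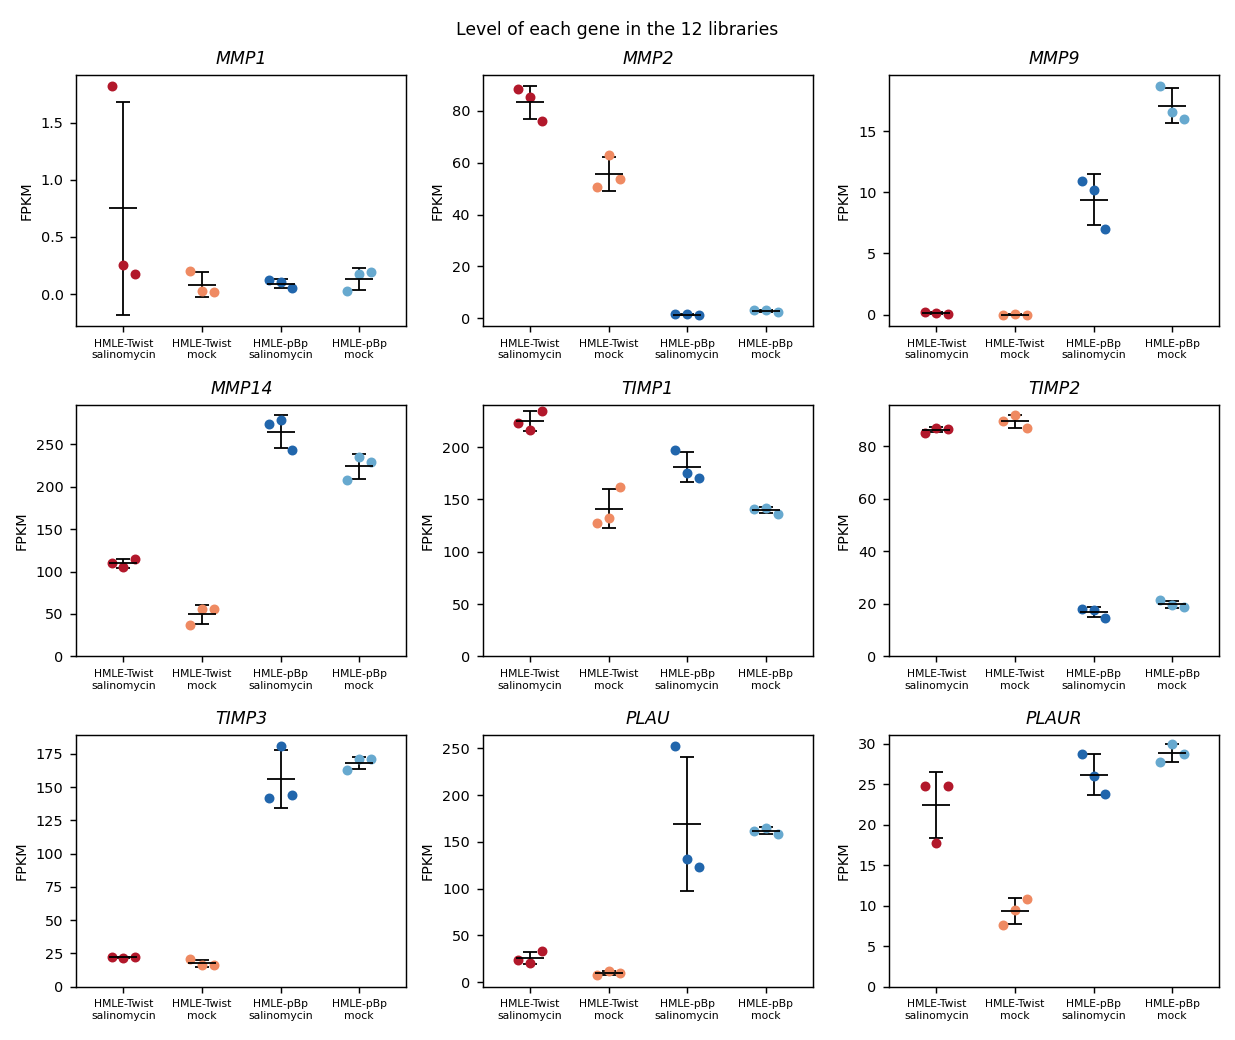
FPKM of the 9 genes in each of the 12 libraries (points, 3 per group), with the group mean and SD (horizontal dash and bar). MMP2 and TIMP2 were highest in HMLE-Twist cells, MMP9, TIMP3 and PLAU in HMLE-pBp cells, and MMP1 stayed under 2 FPKM in all 12.

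In HMLE-Twist cells, salinomycin was followed by higher RNA levels of MMP14, MMP2, TIMP1, TIMP3, PLAU and PLAUR. Of the 8 genes that passed the filter on low values, 6 were higher and 0 were lower than in mock-treated cells at an adjusted p under 0.05 (limma), while 13.0% of the 11735 genes tested were higher and 13.7% lower. The count of 0 was also 0 at an unadjusted p under 0.05 and with limma's voom. In HMLE-pBp cells 1 of the same 8, TIMP1, was higher and 2, MMP2 and MMP9, were lower, beside 9.77% of all genes higher and 9.58% lower. The median log2 fold change of the 8 was 0.63 in HMLE-Twist, where that of all genes was -0.01, and -0.13 in HMLE-pBp, where that of all genes was also -0.01. The response differed between the lines for 5 of the 8 genes, MMP2, MMP9, MMP14, PLAU and PLAUR, in each case with the higher value in HMLE-Twist, and for 0 of the 8 in the other direction, also at an unadjusted p under 0.05 and with voom. Over all genes tested, 6.98% had the higher and 6.59% the lower response in HMLE-Twist. MMP9 passed the filter through its HMLE-pBp libraries only, and 4 of the other 7 genes had a called difference. The 6 calls in HMLE-Twist fell to 5 in some alternatives, through the loss of TIMP3. Fold changes here are on the scale of log2(FPKM + 1), which understates the change of genes with low levels.

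**Figure D2:**
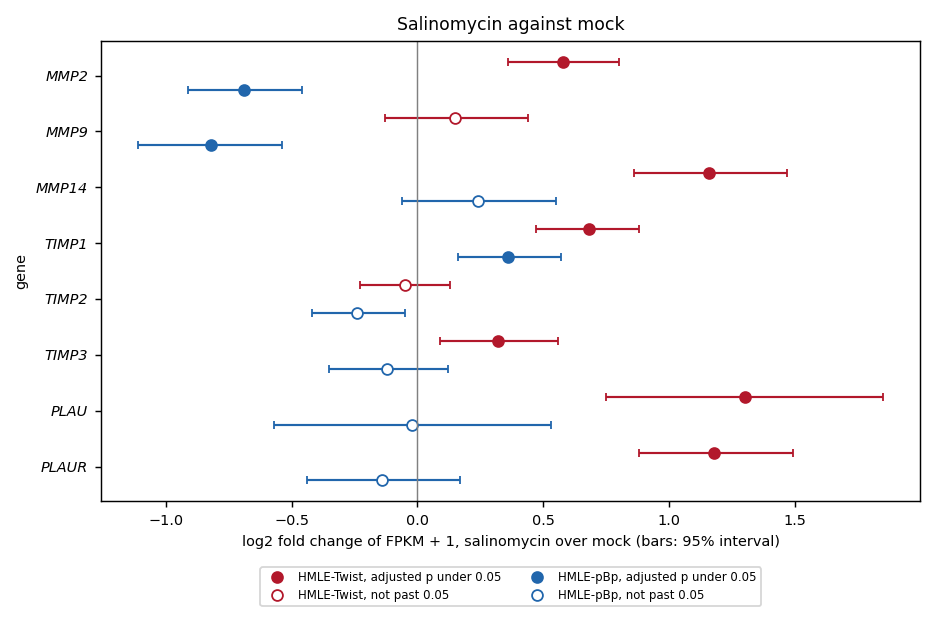
Log2 fold change of FPKM + 1, salinomycin over mock, for the 8 genes tested (points, with 95% intervals), in HMLE-Twist and HMLE-pBp cells; filled points passed an adjusted p of 0.05. The 6 filled HMLE-Twist points lie between 0.32 and 1.30, and the filled HMLE-pBp points are at -0.69, -0.82 and 0.36.

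MMP14, the membrane-anchored metalloproteinase, was the most abundant of the 4 enzymes in 3 of the groups. It had 109.7, 105 and 115 FPKM in salinomycin-treated HMLE-Twist cells, against 36.4, 56.2 and 55.6 FPKM in mock-treated HMLE-Twist cells. All 3 treated libraries lay above all 3 mock libraries. The mean was 2.22 times as high, with a log2 fold change of 1.16 ± 0.14 (SE) and an adjusted p of 1.18e-04 (limma). In HMLE-pBp cells MMP14 had 274, 279 and 243 FPKM with salinomycin and 208, 235 and 229 FPKM with mock treatment. The lowest treated library lay just above the highest mock library, and the difference, 0.24 ± 0.14 on the log2 scale, did not pass the test (adjusted p = 0.238, 95% interval -0.06 to 0.55). The response in HMLE-Twist exceeded that in HMLE-pBp by 0.92 ± 0.20 (adjusted p = 0.0119). Between the lines, MMP14 was lower in HMLE-Twist under both treatments.

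MMP2, the secreted gelatinase that MMP14 activates, moved in opposite directions in the lines. It had 88.3, 85.1 and 76.2 FPKM in salinomycin-treated HMLE-Twist cells and 50.5, 62.8 and 53.5 FPKM in mock-treated ones. The groups did not overlap, and the treated mean was 1.50 times the mock mean (log2 fold change 0.58 ± 0.10, adjusted p = 0.00155). In HMLE-pBp cells MMP2 had 1.57, 1.53 and 1.44 FPKM with salinomycin and 3.14, 3.39 and 2.62 FPKM with mock treatment. There too the groups did not overlap, with the treated libraries the lower ones, at 0.496 times the mock mean (log2 fold change -0.69 ± 0.10, adjusted p = 9.02e-04). The difference of the responses was 1.26 ± 0.14 (adjusted p = 4.15e-04). The 4 groups stood in the order HMLE-Twist salinomycin, HMLE-Twist mock, HMLE-pBp mock and HMLE-pBp salinomycin, with no overlap between neighbours.

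MMP9, the other gelatinase, was expressed mainly in HMLE-pBp cells. It had 10.9, 10.2 and 7.00 FPKM in salinomycin-treated HMLE-pBp cells, against 18.7, 16.6 and 16.0 FPKM in mock-treated HMLE-pBp cells. No treated library reached a mock one, and the mean fell to 0.548 times that of mock (log2 fold change -0.82 ± 0.13, adjusted p = 0.00147). In HMLE-Twist cells MMP9 rested on 10, 5 and 4 reads with salinomycin (0.190, 0.101 and 0.0675 FPKM) and on 0, 1 and 0 reads with mock treatment. Its summed reads, scaled for library size, were 19.0 times as many with salinomycin, with a counting interval of 3.03 to 791 (exact, 95%). That change did not pass the test (log2 fold change 0.15 ± 0.13, adjusted p = 0.436), although it did with a pseudocount of 0.1 (1.00 ± 0.22, adjusted p = 0.00581) and with limma's voom on the reads (3.13 ± 0.96, adjusted p = 0.0266). The difference of the responses was 0.97 ± 0.19 (adjusted p = 0.00703) and ran from 0.80 to 4.01 over 23 alternatives. MMP9 passed the filter through its HMLE-pBp libraries only, and with a pseudocount of 1 the HMLE-Twist side of this difference is held close to 0, so that the value of 0.97 is mostly the HMLE-pBp change.

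MMP1, the interstitial collagenase, was below the filter of 1 FPKM in 3 libraries and was not tested. Salinomycin-treated HMLE-Twist cells gave 84, 11 and 9 reads of MMP1, which are 1.82, 0.254 and 0.173 FPKM, and mock-treated HMLE-Twist cells gave 9, 1 and 1 reads. In both groups replicate 1 held most of the reads. The groups overlapped, since mock replicate 1, at 0.206 FPKM, lay above treated replicate 3, at 0.173 FPKM. The summed reads, scaled for library size, were 9.48 times as many with salinomycin (exact counting interval 5.08 to 19.6), and 10.3 times without replicate 1 of both groups (2.50 to 90.8). These intervals cover counting error only and leave out the spread between libraries. Salinomycin-treated HMLE-pBp cells gave 5, 4 and 2 reads and mock-treated HMLE-pBp cells 1, 6 and 9 reads. These groups overlapped, and the ratio of their scaled reads was 0.694 with a counting interval of 0.291 to 1.59.

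TIMP1, a secreted inhibitor of most metalloproteinases, was the only one of the 8 genes tested that was higher with salinomycin in both lines at an adjusted p under 0.05. In HMLE-Twist it had 223, 216 and 235 FPKM with salinomycin and 128, 132 and 162 FPKM with mock treatment, a log2 fold change of 0.68 ± 0.09 (adjusted p = 3.06e-04). In HMLE-pBp it had 197, 175 and 170.1 FPKM with salinomycin and 141, 142 and 136 FPKM with mock treatment, a log2 fold change of 0.36 ± 0.09 (adjusted p = 0.0184). The treated libraries were the higher ones in both lines, with no overlap. The HMLE-pBp call was lost without treated replicate 1 (0.30 ± 0.10, adjusted p = 0.0751), without mock replicate 2 (adjusted p = 0.0501) and without mock replicate 3 (adjusted p = 0.0743). The responses in the lines differed by 0.31 ± 0.13, which did not pass the test (adjusted p = 0.130) but did with a replicate block within each line (adjusted p = 0.0403).

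TIMP2, which inhibits MMP2 and also takes part in its activation by MMP14, had 85.1, 87.0 and 86.7 FPKM in salinomycin-treated and 89.5, 91.9 and 87.0 FPKM in mock-treated HMLE-Twist cells. The ranges met at 87.0 FPKM, and the log2 fold change was -0.05 (adjusted p = 0.706, 95% interval -0.23 to 0.13). In HMLE-pBp cells TIMP2 had 18.0, 17.6 and 14.7 FPKM with salinomycin and 21.4, 19.4 and 18.9 FPKM with mock treatment. All treated libraries were below all mock libraries, at a log2 fold change of -0.24 ± 0.08 that missed the threshold (adjusted p = 0.0671) and passed it with the replicate block within each line (adjusted p = 0.0184). In HMLE-Twist, TIMP2 thus had no called change where MMP2 and MMP14 were both higher.

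TIMP3, an inhibitor that binds to the matrix and also blocks several ADAM proteases, had 22.0, 21.7 and 22.2 FPKM in salinomycin-treated and 20.4, 16.1 and 16.0 FPKM in mock-treated HMLE-Twist cells. The treated libraries were all higher, by 0.32 ± 0.11 on the log2 scale, and the adjusted p of 0.0453 was close to the threshold. It ranged from 0.00732 to 0.145 over 24 alternatives and the call was lost in 10 of them. Those included leaving out any 1 of the 3 treated HMLE-Twist libraries (0.0922 to 0.116) or mock replicate 2 (0.145) or 3 (0.117). In HMLE-pBp cells TIMP3 had 142, 181 and 144 FPKM with salinomycin and 163, 171 and 171 FPKM with mock treatment, and the groups overlapped (log2 fold change -0.12, adjusted p = 0.462). The difference of the responses, 0.44 ± 0.15, had an adjusted p of 0.0757, which became 0.0276 with the replicate block within each line and 0.151 without replicate 1 of the salinomycin-treated HMLE-pBp cells.

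PLAU, which encodes urokinase, had 23.9, 20.4 and 33.6 FPKM in salinomycin-treated HMLE-Twist cells, against 7.63, 12.1 and 9.83 FPKM in mock-treated HMLE-Twist cells. The lowest treated library was above the highest mock library, and the mean was 2.63 times as high (log2 fold change 1.30 ± 0.25, adjusted p = 0.00268). In HMLE-pBp cells it had 252, 132 and 123 FPKM with salinomycin and 162, 165 and 158 FPKM with mock treatment. Replicate 1 of the treated cells was above, and the other 2 treated libraries were below, all mock libraries. The log2 fold change was -0.02 ± 0.25 (adjusted p = 0.972, 95% interval -0.57 to 0.53) and -0.34 ± 0.19 without treated replicate 1 (adjusted p = 0.296). The difference of the responses was 1.32 ± 0.36 (adjusted p = 0.0312) and 1.65 ± 0.26 without that library (adjusted p = 0.00386). The call on this difference was lost in 9 of 23 alternatives, with a highest adjusted p of 0.0800 without replicate 3 of the salinomycin-treated HMLE-Twist cells.

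PLAUR, the membrane receptor that holds urokinase at the cell surface, also rose in HMLE-Twist cells. It had 24.8, 17.7 and 24.8 FPKM with salinomycin and 7.66, 9.49 and 10.8 FPKM with mock treatment, 2.41 times as high in the mean (log2 fold change 1.18 ± 0.14, adjusted p = 1.11e-04). The groups did not overlap. In HMLE-pBp cells it had 28.8, 26.0 and 23.8 FPKM with salinomycin and 27.8, 30.0 and 28.7 FPKM with mock treatment. These groups overlapped, with a log2 fold change of -0.14 (adjusted p = 0.520, 95% interval -0.44 to 0.17). The responses differed by 1.32 ± 0.20 (adjusted p = 0.00195). Of the treated HMLE-Twist libraries, 2 lay within the range of the HMLE-pBp libraries and 1 below it, and the 3 mock HMLE-Twist libraries were all below it.

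Without replicate 1 of the salinomycin-treated HMLE-pBp cells, TIMP1 lost its call in HMLE-pBp and MMP2 (-0.70 ± 0.12) and MMP9 (-0.93 ± 0.13) were still lower there, while 5.80% of all genes tested were higher and 4.71% lower. The log2 fold changes of MMP14 (0.22), TIMP2 (-0.29), TIMP3 (-0.06) and PLAUR (-0.20) in HMLE-pBp were not called without it either. The difference of the responses was called for MMP2 (1.28), MMP9 (1.08), MMP14 (0.95), PLAU (1.65) and PLAUR (1.38), while 5.41% of all genes had the higher and 4.41% the lower response in HMLE-Twist.

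The genes that rose in HMLE-Twist cells and have an entry in the RefSeq promoter table were MMP14, TIMP1, TIMP3, PLAU and PLAUR, with 6 windows of 300 bases around their starts (GRCh38.p14). MMP1, MMP2, MMP9 and TIMP2 are named only, and TIMP3, whose call was close to the threshold, is given by its motif counts. The windows of PLAUR, PLAU, MMP14 and TIMP1 are shown because each gene was called higher in treated HMLE-Twist cells by at least 0.68 on the log2 scale, in lower case 5′ to 3′ on the strand of the gene. Capitals mark the AP-1 motif TGANTCA in PLAUR and the GC box GGGCGG, on either strand, in the others. They are, in order, chr19:43670120-43670419 on the minus strand, chr10:73910360-73910659 and chr10:73910882-73911181 on the plus strand, chr14:22836335-22836634 on the plus strand and chrX:47582186-47582485 on the plus strand.
PLAUR: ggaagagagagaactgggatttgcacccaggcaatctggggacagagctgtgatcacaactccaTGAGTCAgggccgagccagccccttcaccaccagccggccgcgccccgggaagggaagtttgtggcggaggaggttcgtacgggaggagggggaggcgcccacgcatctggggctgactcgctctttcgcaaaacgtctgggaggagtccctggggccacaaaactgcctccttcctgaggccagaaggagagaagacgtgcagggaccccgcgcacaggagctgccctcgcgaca
PLAU, upstream start: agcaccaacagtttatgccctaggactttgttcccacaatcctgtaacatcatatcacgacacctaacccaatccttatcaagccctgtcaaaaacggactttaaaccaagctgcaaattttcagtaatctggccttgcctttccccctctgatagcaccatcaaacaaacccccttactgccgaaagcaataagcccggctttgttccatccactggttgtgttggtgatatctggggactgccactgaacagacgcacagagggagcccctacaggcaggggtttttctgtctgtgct
PLAU, downstream start: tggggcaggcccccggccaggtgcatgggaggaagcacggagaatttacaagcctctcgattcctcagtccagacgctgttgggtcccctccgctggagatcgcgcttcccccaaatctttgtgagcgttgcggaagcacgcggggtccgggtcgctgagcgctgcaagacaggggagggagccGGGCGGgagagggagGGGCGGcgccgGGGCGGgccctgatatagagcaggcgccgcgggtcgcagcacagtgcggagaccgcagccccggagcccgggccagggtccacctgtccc
MMP14: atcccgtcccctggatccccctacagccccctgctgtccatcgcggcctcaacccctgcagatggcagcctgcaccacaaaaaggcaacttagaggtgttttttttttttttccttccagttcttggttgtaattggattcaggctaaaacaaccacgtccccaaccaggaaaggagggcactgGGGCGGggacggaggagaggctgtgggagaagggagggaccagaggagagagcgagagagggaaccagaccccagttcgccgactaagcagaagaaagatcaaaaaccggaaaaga
TIMP1: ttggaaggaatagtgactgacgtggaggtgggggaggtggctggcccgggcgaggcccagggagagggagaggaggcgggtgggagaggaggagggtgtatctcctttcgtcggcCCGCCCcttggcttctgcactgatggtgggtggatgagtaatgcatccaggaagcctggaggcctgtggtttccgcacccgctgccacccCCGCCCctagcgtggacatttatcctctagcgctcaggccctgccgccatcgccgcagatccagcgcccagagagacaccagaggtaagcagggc
AP-1 is the dimer of FOS and JUN family factors, and the GC box is the element bound by Sp1. The AP-1 motif occurred in 1 of the 6 windows, that of PLAUR, with its first base at position -186 from the start, and in 7.71% of the 35116 windows of the table. The GC box occurred 3 times at the downstream start of PLAU, 2 times in TIMP1, 1 time in MMP14 and 5 times in TIMP3, and 45.0% of all windows held it. The PLAUR window and the upstream window of PLAU held 0 GC boxes. No window held both motifs, so none overlapped. A match describes the letters only and says nothing of binding.

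The RNA of the AP-1 and ETS factors themselves was also measured, since both families are known to act on promoters of these proteases. Of 11 such genes tested, 6 were higher and 0 lower with salinomycin in HMLE-Twist cells, with a median log2 fold change of 0.70, while 13.0% of all genes were higher and 13.7% lower. FOSL1, a FOS family member, averaged 107 FPKM with salinomycin and 25.2 FPKM with mock treatment in HMLE-Twist (log2 fold change 2.04 ± 0.19, adjusted p = 2.34e-05). Of the ETS factors, ETV5 averaged 22.7 and ETV4 15.1 FPKM with salinomycin, against 9.09 FPKM of ETV5 and 7.79 FPKM of ETV4 with mock treatment. In HMLE-pBp cells 3 of the 11 were higher and 0 lower, while 9.77% of all genes were higher and 9.58% lower. ATF3 was among them, with a log2 fold change of 0.97 ± 0.23 (adjusted p = 0.0141). Without replicate 1 of the salinomycin-treated HMLE-pBp cells 1 of the 11 was higher, ATF3 at 0.63 ± 0.15 (adjusted p = 0.0203). The 0 lower of both lines was also 0 at an unadjusted p under 0.05 and with voom. FOSL1 was not among the 3 (0.23, adjusted p = 0.410), and its responses in the lines differed by 1.81 ± 0.27 (adjusted p = 0.00178). Without replicate 1 of the salinomycin-treated HMLE-pBp cells they differed by 1.93 ± 0.27. Whether these factors have a part in the changes of the 9 genes was not tested.

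Calls among the other genes of the plasminogen system went in both directions. Of 15 tested, 4 were higher and 2 lower with salinomycin in HMLE-Twist cells, and 1 was higher and 3 lower in HMLE-pBp cells, with medians of 0.07 and 0.09. Of all genes tested, 13.0% were higher and 13.7% lower in HMLE-Twist, and 9.77% higher and 9.58% lower in HMLE-pBp. LRP1, an endocytic receptor that clears proteases from the cell surface, averaged 31.3 FPKM with salinomycin and 18.0 FPKM with mock treatment in HMLE-Twist (log2 fold change 0.78 ± 0.17, adjusted p = 0.00552). S100A10, a plasminogen receptor subunit at the cell surface, and its partner ANXA2 were lower in treated HMLE-Twist cells, with means of 186 FPKM for S100A10 and 1302 FPKM for ANXA2, against 260.3 FPKM of S100A10 and 1624 FPKM of ANXA2 with mock treatment. In HMLE-pBp cells PLAT, the tissue-type activator, averaged 11.8 FPKM with salinomycin and 22.2 FPKM with mock treatment (-0.85 ± 0.13, adjusted p = 9.03e-04), and its response was 0.69 ± 0.18 higher in HMLE-Twist (adjusted p = 0.0257). Without replicate 1 of the salinomycin-treated HMLE-pBp cells that difference was 0.63 ± 0.19 and missed the threshold (adjusted p = 0.0560). SERPINB2, an inhibitor of urokinase, averaged 12.2 FPKM with salinomycin and 19.8 FPKM with mock treatment in HMLE-pBp (-0.68 ± 0.15, adjusted p = 0.00955). ST14, the membrane protease matriptase that can activate urokinase, fell there as well (-0.64 ± 0.14, adjusted p = 0.00936). VLDLR, a receptor related to LRP1, was higher in both lines, by 1.10 ± 0.16 in HMLE-Twist and 1.42 ± 0.16 in HMLE-pBp. Without replicate 1 of the salinomycin-treated HMLE-pBp cells, VLDLR (1.26 ± 0.15) was still called higher in HMLE-pBp. PLAT (-0.78 ± 0.14), SERPINB2 (-0.87 ± 0.12) and ST14 (-0.45 ± 0.10) were still called lower there without it. PLG, which encodes plasminogen itself, averaged 0.00669 FPKM in mock-treated HMLE-Twist cells and had 0 reads in the other 3 groups.

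Among 19 other metalloproteinases, 4 were tested, 12 were below the filter and 3, MMP10, MMP16 and MMP24, had reads that could not be settled. MMP15, a second membrane-anchored enzyme, and MMP19 were higher with salinomycin in HMLE-Twist cells. MMP15 averaged 2.29 FPKM with salinomycin and 1.31 FPKM with mock treatment, and MMP19 averaged 8.46 FPKM with salinomycin and 6.19 FPKM with mock treatment. In HMLE-pBp 0 of the 4 passed the test in limma, 0 with voom and 1 at an unadjusted p under 0.05, which was MMP15 with a log2 fold change of -0.37 (adjusted p = 0.0812). Of 12 ADAM and ADAMTS proteases tested, 3 were higher and 1 lower in treated HMLE-Twist cells, and 2 were higher and 3 lower in treated HMLE-pBp cells. Of all genes tested, 13.0% were higher and 13.7% lower in HMLE-Twist, and 9.77% higher and 9.58% lower in HMLE-pBp. ADAM8, a membrane sheddase, averaged 1.33 FPKM with salinomycin and 0.301 FPKM with mock treatment in HMLE-Twist (0.83 ± 0.13, adjusted p = 7.20e-04). Without replicate 1 of the salinomycin-treated HMLE-pBp cells the 2 higher calls and 1 of the lower calls in HMLE-pBp were lost. ADAM19 averaged 24.7 FPKM with salinomycin and 42.8 FPKM with mock treatment in HMLE-pBp (-0.77 ± 0.15, adjusted p = 0.00469). ADAM19 was still called lower without that library (-0.74 ± 0.17).

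Of 6 other regulators of metalloproteinases tested, 1 was higher and 0 lower in treated HMLE-Twist cells, and 0 were higher and 1 lower in treated HMLE-pBp cells, with the counts of 0 the same at an unadjusted p under 0.05 and with voom. Of all genes tested, 13.0% were higher and 13.7% lower in HMLE-Twist, and 9.77% higher and 9.58% lower in HMLE-pBp. CD44, the hyaluronan receptor that can hold MMP9 and MMP14 at the cell surface, averaged 112 FPKM with salinomycin and 65.8 FPKM with mock treatment in HMLE-Twist (0.76 ± 0.13, adjusted p = 0.00114). FURIN, the proprotein convertase that activates the MMP14 precursor, averaged 60.5 FPKM with salinomycin and 95.8 FPKM with mock treatment in HMLE-pBp (-0.70 ± 0.22, adjusted p = 0.0478), and its response was 1.22 ± 0.32 higher in HMLE-Twist (adjusted p = 0.0264). Without replicate 1 of the salinomycin-treated HMLE-pBp cells the change in HMLE-pBp was -0.42 ± 0.18 and not called (adjusted p = 0.168), and the difference was 0.94 ± 0.24 (adjusted p = 0.0336). In HMLE-Twist the change of FURIN was 0.52 ± 0.22 and not called (adjusted p = 0.106, limma). Without that library FURIN was called higher in HMLE-Twist (0.52 ± 0.16, adjusted p = 0.0306, limma). Among 19 matrix substrates tested, 6 were higher and 4 lower in treated HMLE-Twist cells, and 1 was higher and 1 lower in treated HMLE-pBp cells, beside the same shares of all genes. Without replicate 1 of the salinomycin-treated HMLE-pBp cells the 1 lower call in HMLE-pBp was lost. LAMB3, a chain of laminin-332, averaged 36.2 FPKM with salinomycin and 9.96 FPKM with mock treatment in HMLE-Twist (1.74 ± 0.15, adjusted p = 1.34e-05). COL3A1, a fibrillar collagen, averaged 164 FPKM with salinomycin and 481 FPKM with mock treatment there (-1.61 ± 0.30, adjusted p = 0.00208). The smooth muscle and pericyte markers summed to 26.9 to 36.4 FPKM with salinomycin and 46.3 to 61.2 FPKM with mock treatment in the same cells, with PDGFRB at 24.1 FPKM with salinomycin and 40.4 FPKM with mock treatment. Their part in these results was not tested.

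**Figure D3:**
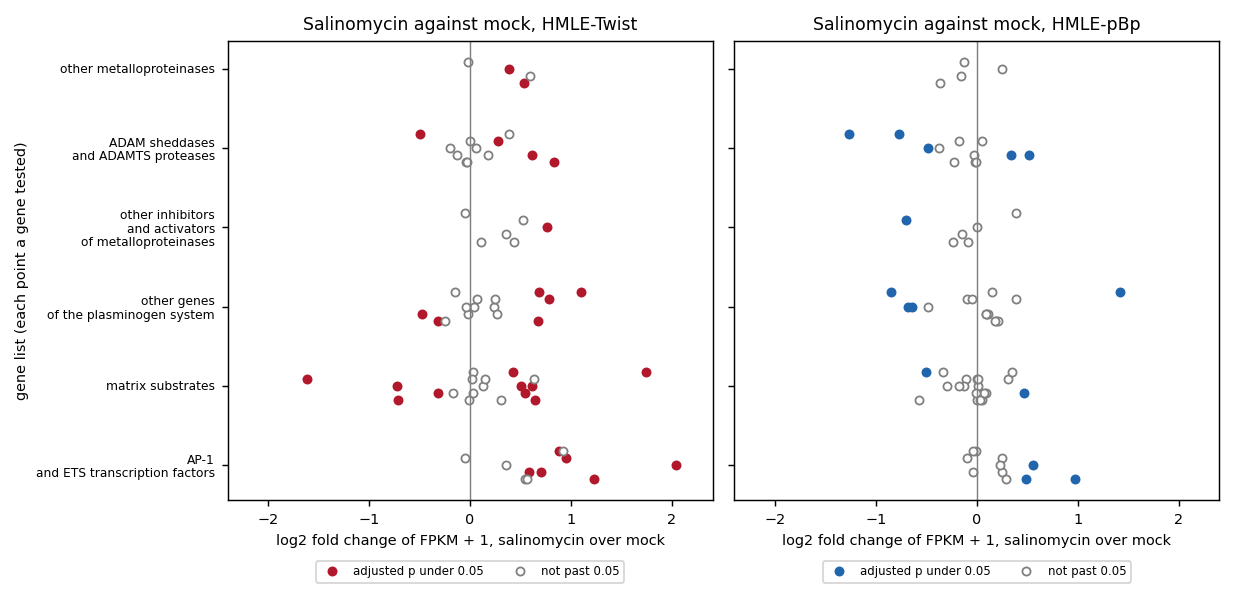
Log2 fold change of FPKM + 1, salinomycin over mock, for each gene tested in 6 related lists (1 point a gene, filled where the adjusted p was under 0.05), in HMLE-Twist on the left and HMLE-pBp on the right. Filled AP-1 and ETS points lie above 0 in both panels, and the matrix substrates lie on both sides of 0 in HMLE-Twist.

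Between the lines, calls went both ways. With salinomycin, 3 of the 8 genes tested were higher and 4 lower in HMLE-Twist than in HMLE-pBp, while 31.5% of all genes tested were higher and 32.1% lower. Without replicate 1 of the salinomycin-treated HMLE-pBp cells these were again 3 and 4 of the 8, beside 31.0% of all genes higher and 31.9% lower. With mock treatment 2 of the 8 were higher and 5 lower, while 36.1% of all genes were higher and 37.3% lower. MMP9, which reached the filter level in HMLE-pBp only, is among the lower ones, and without it 3 of 7 were lower with salinomycin and 4 of 7 with mock treatment. Scaling by total reads put the median log2 fold change of all genes at 0.14 in both line comparisons. With salinomycin it put the share of calls that were higher at 60.7%, where that with size factors was 49.5%.

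MMP2 and TIMP2 were higher in HMLE-Twist under both treatments. MMP2 averaged 83.2 ± 6.30 FPKM in HMLE-Twist and 1.51 ± 0.0662 FPKM in HMLE-pBp with salinomycin (SD, n = 3), 55.1 times as high (log2 fold change 5.06 ± 0.10, adjusted p = 5.82e-13). With mock treatment it averaged 55.6 ± 6.40 FPKM in HMLE-Twist and 3.05 ± 0.390 FPKM in HMLE-pBp, 18.2 times as high. TIMP2 averaged 86.3 ± 1.02 FPKM in HMLE-Twist and 16.8 ± 1.81 FPKM in HMLE-pBp with salinomycin (2.30 ± 0.08, adjusted p = 1.55e-10). With mock treatment it averaged 89.5 ± 2.44 FPKM in HMLE-Twist and 19.9 ± 1.35 FPKM in HMLE-pBp (2.12 ± 0.08). The libraries of the lines did not overlap for either gene.

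MMP9, TIMP3, PLAU and MMP14 were higher in HMLE-pBp. MMP9 rested on 1 read over the 3 mock-treated HMLE-Twist libraries and on 2345 reads over the 3 mock-treated HMLE-pBp libraries, so that the scaled reads were 2761 times as many in HMLE-pBp, with a counting interval of 495 to 109086. TIMP3 averaged 22.0 ± 0.261 FPKM in HMLE-Twist and 156 ± 21.9 FPKM in HMLE-pBp with salinomycin, and 17.5 ± 2.51 FPKM in HMLE-Twist and 168 ± 4.64 FPKM in HMLE-pBp with mock treatment. PLAU averaged 26.0 ± 6.82 FPKM in HMLE-Twist and 169 ± 71.9 FPKM in HMLE-pBp with salinomycin (-2.61 ± 0.25, adjusted p = 1.86e-06), and the difference was -2.28 ± 0.19 without replicate 1 of the treated HMLE-pBp cells. With mock treatment it averaged 9.86 ± 2.25 FPKM in HMLE-Twist and 162 ± 3.44 FPKM in HMLE-pBp (-3.93 ± 0.25, adjusted p = 2.97e-08). MMP14 averaged 109.9 ± 5.37 FPKM in HMLE-Twist and 265 ± 19.3 FPKM in HMLE-pBp with salinomycin (-1.26 ± 0.14), and 49.4 ± 11.2 FPKM in HMLE-Twist and 224 ± 14.3 FPKM in HMLE-pBp with mock treatment (-2.18 ± 0.14).

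PLAUR and TIMP1 stood closest between the lines. PLAUR averaged 22.5 ± 4.09 FPKM in HMLE-Twist and 26.2 ± 2.50 FPKM in HMLE-pBp with salinomycin, where the libraries overlapped (-0.23, adjusted p = 0.175, 95% interval -0.53 to 0.08). With mock treatment it averaged 9.32 ± 1.58 FPKM in HMLE-Twist and 28.9 ± 1.10 FPKM in HMLE-pBp (-1.54 ± 0.14, adjusted p = 7.45e-07). TIMP1 averaged 225 ± 9.70 FPKM in HMLE-Twist and 181 ± 14.3 FPKM in HMLE-pBp with salinomycin (0.32 ± 0.09, adjusted p = 0.0103). With mock treatment it averaged 141 ± 18.6 FPKM in HMLE-Twist and 139.8 ± 3.14 FPKM in HMLE-pBp, and the libraries overlapped (0.00, adjusted p = 0.979, 95% interval -0.20 to 0.21). These line comparisons share their libraries with the treatment comparisons above and are not separate evidence.

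**Figure D4:**
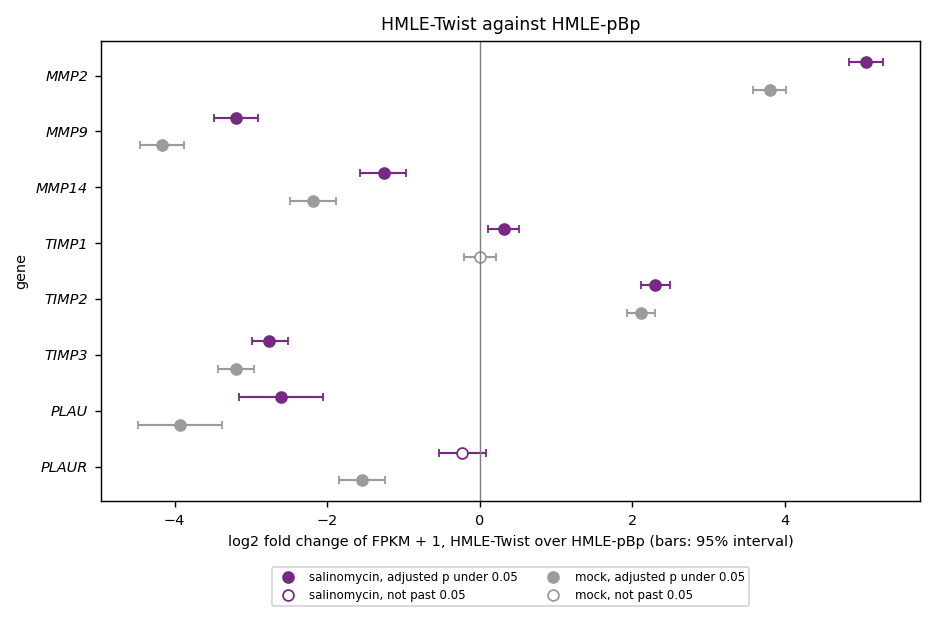
Log2 fold change of FPKM + 1, HMLE-Twist over HMLE-pBp, for the 8 genes tested (points, with 95% intervals), with salinomycin and with mock treatment; filled points passed an adjusted p of 0.05. MMP2 and TIMP2 lie between 2.12 and 5.06, and MMP9, MMP14, TIMP3 and PLAU lie below 0 under both treatments.

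Per length, the pool of enzyme RNA had a different makeup in each line. The 4 metalloproteinases summed to 200.0, 190.1 and 192 FPKM in salinomycin-treated and 87.1, 119 and 109 FPKM in mock-treated HMLE-Twist cells, and to 287, 291 and 252 FPKM in salinomycin-treated and 229.9, 255 and 248 FPKM in mock-treated HMLE-pBp cells. MMP2 made up 42.9 ± 2.76% of this sum in salinomycin-treated and 53.2 ± 4.48% in mock-treated HMLE-Twist cells, but 0.548 ± 0.0233% in salinomycin-treated and 1.25 ± 0.168% in mock-treated HMLE-pBp cells, where MMP14 made up 96.1 ± 0.524% with salinomycin and 91.7 ± 1.03% with mock treatment. The 3 TIMPs summed to 333 ± 9.96 FPKM in salinomycin-treated and 248 ± 15.1 FPKM in mock-treated HMLE-Twist cells, and to 353 ± 22.7 FPKM in salinomycin-treated and 328 ± 3.78 FPKM in mock-treated HMLE-pBp cells. TIMP2 gave 25.9 ± 0.819% and TIMP3 6.61 ± 0.125% of the TIMP sum in salinomycin-treated HMLE-Twist cells, whereas TIMP2 gave 4.74 ± 0.286% and TIMP3 44.0 ± 4.32% in salinomycin-treated HMLE-pBp cells.

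The enzyme sum divided by the TIMP sum was 0.605, 0.586 and 0.558 in salinomycin-treated HMLE-Twist libraries and 0.366, 0.495 and 0.411 in mock-treated ones, without overlap. It was 0.802, 0.779 and 0.767 in salinomycin-treated HMLE-pBp libraries and 0.706, 0.769 and 0.761 in mock-treated ones, where the ranges overlapped. PLAU divided by PLAUR was 1.16 ± 0.195 in salinomycin-treated and 1.06 ± 0.193 in mock-treated HMLE-Twist cells, and 8.73, 5.06 and 5.16 in salinomycin-treated and 5.84, 5.50 and 5.51 in mock-treated HMLE-pBp libraries. The treated mean of 6.32 was above the mock mean of 5.61 through replicate 1 alone, and the other 2 treated libraries lay below every mock library. The sums count every TIMP alike, whichever enzyme it blocks. These ratios describe RNA and were not tested. They also rest on the gene lengths behind FPKM, and that of TIMP1 was 0.628 times the reference exon length, so that its mean in salinomycin-treated HMLE-Twist cells was 141 FPKM with reference lengths in place of 225 FPKM.

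**Figure D5:**
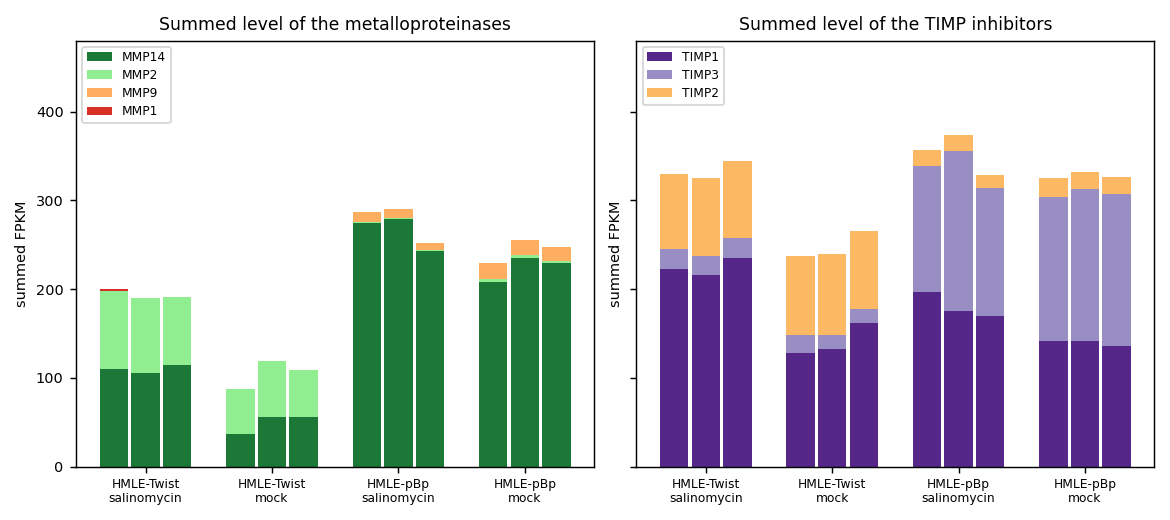
Summed FPKM of the 4 metalloproteinases (left) and the 3 TIMP inhibitors (right) in each of the 12 libraries, 1 stacked bar a library, coloured by gene. MMP2 fills 42.9% to 53.2% of the enzyme bars on average in HMLE-Twist cells and 0.548% to 1.25% in HMLE-pBp cells.

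For each gene tested, the 3 genes whose pattern over the 12 libraries lay nearest were found by the root mean square distance of log2 values centred on their mean. MAX, RELA and TMEM106A lay nearest to TIMP1, at 0.08 to 0.11. CYP27B1, RHBDF2 and ITGA3 lay nearest to MMP14, at 0.13 to 0.20. PTHLH, SERPINB2 and SLC39A8 lay nearest to MMP9, and ITPRIP, TRIM47 and FAM83G nearest to PLAUR, both at 0.18 to 0.20. PLEKHO1, ADAMTS12 and MSRB3 lay nearest to TIMP2, and SCEL, ADGRF4 and TMTC2 nearest to TIMP3. MMP2 and PLAU had less close neighbours, ARMCX2, LRIG1 and BGN for MMP2 at 0.28 to 0.31 and ADAM8, TNFRSF10A and HES1 for PLAU at 0.39 to 0.40. On this scale a gene near 0 FPKM can lie near without a like fold between the lines. With salinomycin, SCEL averaged 0.00489 FPKM in HMLE-Twist and 6.44 FPKM in HMLE-pBp, and TIMP3 averaged 22.0 FPKM in HMLE-Twist and 156 FPKM in HMLE-pBp. These distances describe the 12 libraries, which share the 4 groups, and carry no test.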

How the data were processed

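Stranded poly(A) mRNA libraries from 750 ng of RNA were sequenced in paired ends of 75 cycles, per the labels. The authors' mock tables hold FPKM, made with DESeq2 (version given as 1.1.0) on hg19, per the submitters' processing notes. No source used here gives the aligner. The salinomycin tables, named as FPKM, hold values on a log2 scale with libraries drawn towards each other, as deposited. Tables were therefore not compared as deposited. Reads were recovered from the steps between values in the mock tables and by inverting the shrinkage in the others. The authors' transformation is not stated, and a penalised negative binomial model was assumed for it. By this, within 0.1 of a whole read fell 99.97% of mock values, 98.5% of the salinomycin values of HMLE-Twist and 96.1% of those of HMLE-pBp. Gene lengths and model settings were chosen to bring values near whole reads, so these shares are no separate check of the model. For genes with a mean over 10000 reads these salinomycin shares were 80.5% in HMLE-Twist and 61.4% in HMLE-pBp, and for values over 1000 reads the largest distance from a whole read was 0.0423% of the value in HMLE-Twist and 0.0448% in HMLE-pBp. The recovery was tested on data simulated under the same assumptions, which cannot show whether the authors' transformation was the one assumed. Left out were 942 genes whose reads could not be settled, 480 of them with over 100 mock reads. FPKM was rebuilt with median-of-ratios size factors over 12 libraries and recovered gene lengths.

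Genes with at least 1 FPKM in at least 3 libraries (11735) entered 1 fit with limma 3.58.1 (R 4.3.3; trend) on log2(FPKM + 1), with all 4 groups, 5 contrasts and Benjamini-Hochberg adjustment over all genes tested, called at 0.05. Values are mean ± SD of 3 libraries, and fold changes ± SE. Same-numbered salinomycin and mock libraries of a line deviated together, with correlations of 0.45, 0.43 and 0.72 in HMLE-Twist and 0.54, 0.23 and 0.59 in HMLE-pBp, so the replicate number was also fitted as a block within each line. Same-numbered libraries of different lines correlated at 0.03 to 0.67, and a block shared by the lines was fitted as well. The pairing comes from these data, not the labels. Alternatives covered scaling, pseudocount, filters, lengths, blocks and leaving out each library. From each list, up to 4 called genes per contrast with the largest change and no overlap between libraries could be named, and PLG was added after its values were seen. Some members of the lists are not reported here by name. The 9 genes, lists and tests were chosen with earlier results of these data known. Counting intervals cover counting error only. Promoter sequences are RefSeq's; no coordinate was converted between builds.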

Additional observations from a re-analysis of the deposited data

Results flagged for a closer look

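Of the 8 genes tested, 5 had a salinomycin response that differed between the lines in limma's test of the difference itself, with adjusted p under 0.05, while 6.98% of all genes had the higher and 6.59% the lower response in HMLE-Twist. On the log2 scale, the response in HMLE-Twist minus that in HMLE-pBp was 1.26 ± 0.14 (SE) for MMP2, with an adjusted p of 4.15e-04, and MMP2 was higher in 3 of 3 treated HMLE-Twist libraries and lower in 3 of 3 treated HMLE-pBp libraries than in every mock library of the line. It was 0.97 ± 0.19 for MMP9, with an adjusted p of 0.00703, where the HMLE-Twist side rests on 19 reads with salinomycin and 1 read with mock treatment. MMP9 passed the filter through HMLE-pBp only, its value ran from 0.80 to 4.01 over 23 alternatives, and 4 of the other 7 genes had a called difference. It was 0.92 ± 0.20 for MMP14 (adjusted p = 0.0119) and 1.32 ± 0.20 for PLAUR (adjusted p = 0.00195). It was 1.32 ± 0.36 for PLAU (adjusted p = 0.0312), and 1.65 ± 0.26 without replicate 1 of the salinomycin-treated HMLE-pBp cells, whose 252 FPKM stood apart from the 132 and 123 FPKM of the other libraries of that group. The PLAU call was lost in 9 of 23 alternatives (adjusted p 0.0538 to 0.0800), among them those without replicate 2 or replicate 3 of the same group.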

How the results depend on the processing

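Of 936 contrast values of the 8 genes under alternatives, 896 kept their direction and their side of the threshold, 13 gained a call and 22 lost one. The other 5 were not called and changed sign, and no called value changed sign. Leaving out a library cannot move a fold change between groups that do not hold it, so some of these directions were fixed in advance. MMP2, MMP14, TIMP1, PLAU and PLAUR kept their call in HMLE-Twist, and MMP2 and MMP9 theirs in HMLE-pBp, under every alternative run. The count of genes called in HMLE-Twist was 3137, and 4769 with the replicate block within each line. In HMLE-pBp it was 2270, and 4238 from the deposited values with no reads recovered, 3961 with a replicate block shared by the lines and 4306 with the replicate block within each line. For the difference of responses it was 1592, and 3687, 3414 and 3799 under the same alternatives in that order. The block within each line called TIMP2 in HMLE-pBp and TIMP1 and TIMP3 for the difference, and changed no other call of the 8 genes. The shared block also called TIMP2 (adjusted p = 0.0263) and the TIMP3 difference (adjusted p = 0.0484). Leaving out 1 library at a time gave 1157 to 3124 genes called in HMLE-pBp, with 0 to 2 of the 8 genes higher, and 767 to 2330 for the difference; the lowest counts came without HMLE-pBp mock replicate 3, and 1234 genes were called in HMLE-pBp without salinomycin replicate 1. Without HMLE-Twist mock replicate 1, MMP14 was also called higher in HMLE-pBp (adjusted p = 0.0319). The cause of these shifts was not tested. Of 144 alternative levels, 25 moved by over 1 SD, chiefly with reference lengths. The fit to the groups of a contrast alone gave no row for the difference, which needs all groups, and the block within each line none for the line comparisons. Depth limits MMP1 in all groups and MMP9 in HMLE-Twist.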
